A study of Mus musculus with 28 samples.

Results

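The regions described here are stretches of mouse chromosomes 1 to 19 that lay in a domain of the repressive histone mark H3K9me2 in 3 of 4 sorted cell populations and outside any domain in the remaining one, mouse embryonic stem cells (mESCs) kept in the solvent DMSO. A base belonged to such a stretch when it was in a domain of mESCs treated with the degrader dTAG-13 (mESC dTAG), of 2-cell-like cells in DMSO (2CLC DMSO) and of 2-cell-like cells treated with the degrader (2CLC dTAG), but in none of mESC DMSO. Segments under 1 kb apart were joined, and stretches of 20 kb or more were kept. This gave 545 regions with a summed length of 22.0 Mb, set against 22791 domains in the 4 sorted sets on the same chromosomes. The regions were thus chosen by the domain positions of all 4 sorted sets, and those positions are given below as a description.

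The study asked how the histone methyltransferase EHMT2 shapes repressed chromatin in mESCs and in the small share of mESCs that pass through a state resembling the 2-cell embryo (2CLCs), in which the endogenous retrovirus MERVL is active. Both populations came from 1 clone of the line EHMT2-dTAG-mcherry MERV-GFP, a BL6/129 hybrid derived from KH2 mESCs, in which the endogenous Ehmt2 gene carries the degron tag and an mCherry reporter, and a MERVL-GFP transgene reports the 2-cell-like state. Cells grown with serum and LIF, per the study's methods on feeder cells, received DMSO or dTAG-13 for 72 h and were then sorted by GFP, the negative cells as mESCs and the positive cells as 2CLCs, with 3 independent experiments per condition and an input library for each immunoprecipitation. The retinoic acid receptor agonist TTNBP was present for 2 of the replicates according to the labels, which do not say which, whereas the methods give no such limit, so any part of TTNBP in the values cannot be told apart. Bulk mESCs of the line EHMT2-dTAG-mcherry after 24 h in DMSO gave 2 further immunoprecipitation libraries with their inputs.

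Each sorted condition is represented by a single set of domain positions. No library had values of its own, the depth of the libraries is unknown, and no difference between sets could be held against the spread between experiments. No test was therefore run, and intervals below cover counting over regions or genes only. A further deposited set, whose name gives neither a cell state nor a treatment, is called the unnamed set. It belonged to no group, and it is the only set that had no part in choosing the regions. Which libraries it was made from is not given in the sources used here. If these were the bulk mESCs in DMSO, its cover of the regions would be that of untreated mESCs in another experiment, and the shares below cannot tell this apart from any other source.

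Di-methylation of histone H3 at lysine 9 is written by EHMT2 together with its partner EHMT1 and spreads over broad, gene-poor and often repeat-rich stretches of chromatin at the nuclear periphery. In embryonic stem cells the mark is known for silencing of germline and 2-cell genes, of some imprinted genes and of clustered gene families. A domain call starts from bins with a high ratio of immunoprecipitation to input within the genome and extends until a bin with a low ratio, so a domain can hold bins of middling ratio and is not a level of the mark. Per the study's methods, both limits are percentiles of the ratio. The paper also reports that EHMT2 depletion lowered H3K9me2 globally in both cell types. A domain in a dTAG set where mESC DMSO has none therefore need not mean more of the mark after depletion.

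The promoters printed here belong to the gene with the first protein-coding start in each of the 3 widest regions that hold one, and to Peg3, an imprinted gene added after its values had been seen. For Gm6871 the RefSeq start lies inside the gene body of GENCODE, downstream of the start counted for the region, and its sequence is that of this internal start. Together they show that the regions span start sites poor in CpG, the dinucleotide that DNA methylation acts on, as well as a CpG-rich start of an imprinted gene. Each sequence covers 250 bases before and 50 bases after the start on GRCm38.p6, taken from RefSeq and written 5′ to 3′ on the strand of the gene, with the CpG dinucleotides (CG) in capitals.
Prl2c3, chr13:12800030-12800329, minus strand: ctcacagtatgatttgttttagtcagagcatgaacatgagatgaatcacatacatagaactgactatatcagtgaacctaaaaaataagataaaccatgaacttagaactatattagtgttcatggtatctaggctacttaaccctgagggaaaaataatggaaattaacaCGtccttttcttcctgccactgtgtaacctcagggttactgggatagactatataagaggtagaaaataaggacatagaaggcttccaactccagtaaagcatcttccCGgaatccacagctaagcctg
Vmn1r114, chr7:20812137-20812436, minus strand: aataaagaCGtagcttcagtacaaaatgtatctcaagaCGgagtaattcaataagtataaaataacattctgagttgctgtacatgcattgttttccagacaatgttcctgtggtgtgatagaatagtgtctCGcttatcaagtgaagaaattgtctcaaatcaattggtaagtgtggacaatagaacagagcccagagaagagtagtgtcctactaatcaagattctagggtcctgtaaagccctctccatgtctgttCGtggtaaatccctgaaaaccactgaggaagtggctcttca
Gm6871, chr7:41560780-41561079, minus strand: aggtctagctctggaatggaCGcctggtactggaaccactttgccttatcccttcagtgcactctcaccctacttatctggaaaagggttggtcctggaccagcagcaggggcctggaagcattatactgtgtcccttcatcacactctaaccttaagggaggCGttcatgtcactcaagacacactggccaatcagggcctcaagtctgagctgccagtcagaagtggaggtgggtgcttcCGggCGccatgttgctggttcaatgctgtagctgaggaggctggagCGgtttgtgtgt
Peg3, chr7:6730370-6730669, minus strand: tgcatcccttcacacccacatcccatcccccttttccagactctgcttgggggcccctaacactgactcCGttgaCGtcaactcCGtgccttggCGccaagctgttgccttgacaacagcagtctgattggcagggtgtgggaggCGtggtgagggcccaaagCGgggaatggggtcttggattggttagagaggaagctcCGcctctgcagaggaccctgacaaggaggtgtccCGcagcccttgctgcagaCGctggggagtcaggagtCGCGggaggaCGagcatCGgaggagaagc
The promoter of Prl2c3 held 2 CpG and that of Vmn1r114 held 4, at 38.0% and 39.3% GC. At the internal start of Gm6871 the count was 5, at 54.3% GC. Peg3 had 13 CpG at 61.3% GC, and the annotated start of the divergent gene Usp29 lay within the same printed bases. Of the 201 protein-coding genes that start in a region, 145 had an entry among the RefSeq promoters. Over all 31396 promoters of chromosomes 1 to 19, the median was 7 CpG and 44.0% held 10 or more, while the 251 promoters in regions had a median of 5 and 37.1% with 10 or more. At least 1 CG, the same letters on both strands, stood in 94.8% of all promoters and in 94.4% of those in regions.

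The regions took up varying shares of the domains that held them. Their median width was 30 kb (order-statistic 95% interval 30 to 35 kb), 204 were under 30 kb, 205 were from 30 kb to under 50 kb, 118 from 50 kb to under 100 kb and 18 were 100 kb or wider. The domains that contained them had a median width of 95 kb in 2CLC DMSO, of 80 kb in 2CLC dTAG and of 70 kb in mESC dTAG. A region made up a median of 41.7%, 50% and 60% of these domains, in the same order. In 143 regions it was at least 50% of the containing domain in all 3 sets. Just below the width limit there were 122 runs of 15 kb and 2 that fell 1 or 2 bases short of 20 kb, and 115 runs stood at 20 kb.

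Most regions did not adjoin a domain of mESC DMSO. Of the 545, 395 (72.5%, Wilson 95% interval 68.6% to 76.1%) met a mESC DMSO domain at neither end, 119 (21.8%) at one end and 31 (5.69%) at both ends, where the region was a gap between mESC DMSO domains. The distance to the nearest mESC DMSO domain had a median of 30 kb, with 210 regions within 10 kb and 166 more than 100 kb away. The stretch without a mESC DMSO domain around a region had a median length of 355 kb. By the same rule, 29.2% of the 1381 stretches missing only in mESC dTAG, 78.8% of the 661 missing only in 2CLC DMSO and 17.6% of the 1001 missing only in 2CLC dTAG met a domain of the set that lacked them at neither end. In this the regions were nearest to the stretches missing only in 2CLC DMSO, the other DMSO set. The sets also differed in their number of domains, with 3870 in each DMSO set, 6770 in mESC dTAG and 8281 in 2CLC dTAG. The part of this in the shares was not tested. With domains under 50 kb left out of every set, 306 regions remained and 50.7% of them met a mESC DMSO domain at neither end.

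**Figure D1:**
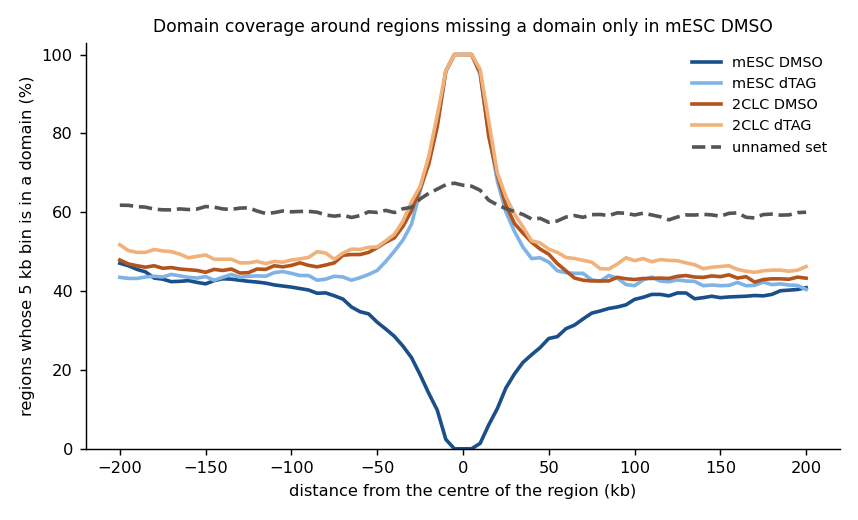
Percent of the 545 regions whose 5 kb bin lies in a domain (vertical axis) against distance from the centre of the region in kb (horizontal axis), 1 line for each sorted set and a dashed line for the unnamed set. At the centre the rule fixes mESC DMSO at 0% and the other 3 sorted sets at 100%, and at 200 kb before the centre all 4 lie between 43.5% and 51.7%, while the unnamed set changes little, from 61.8% there to 66.8% at the centre.

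The flanks of the regions carried domains in all populations. At 200 kb before the centre, 47.1% of regions had a mESC DMSO domain, against 47.9% for 2CLC DMSO, 51.7% for 2CLC dTAG and 43.5% for mESC dTAG. At 200 kb after the centre the shares were, in the same order, 40.9%, 43.3%, 46.2% and 40.4%. At 40 kb mESC DMSO had reached 28.5% before the centre and 23.9% after it. These sets covered 52.4%, 49.7%, 46.7% and 44.6% of chromosomes 1 to 19. At 200 kb on either side, all but 2CLC dTAG before the centre were below that cover. The unnamed set stayed near its share of the genome along the whole window. It covered 63.3% of chromosomes 1 to 19 and 67.1% of the bases of the regions.

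Coverage by the unnamed set split the regions. At least 50% of the region was in the unnamed set in 366 regions (67.2%, Wilson 95% interval 63.1% to 71.0%), not a single base was in 145 (26.6%, 23.1% to 30.5%), and 34 were between. In the other classes, regions with at least 50% in the unnamed set were 96.2% (95% to 97.1%) of stretches missing only in mESC dTAG, 85.2% (82.3% to 87.7%) of those missing only in 2CLC DMSO and 95.5% (94.0% to 96.6%) of those missing only in 2CLC dTAG. The share of the regions missing only in mESC DMSO was the lowest of these 4. Each class rests on 1 domain set per condition, so the differences between these shares were not tested, and their reading depends on the unknown source of the unnamed set. Of the bases in all 4 sorted sets, 94.0% were in the unnamed set, as were 95.1% of those in mESC DMSO alone and 24.0% of those in none. The unnamed set lies on another grid of bins than the sorted sets, and the part of the grid in these shares was not tested.

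**Figure D2:**
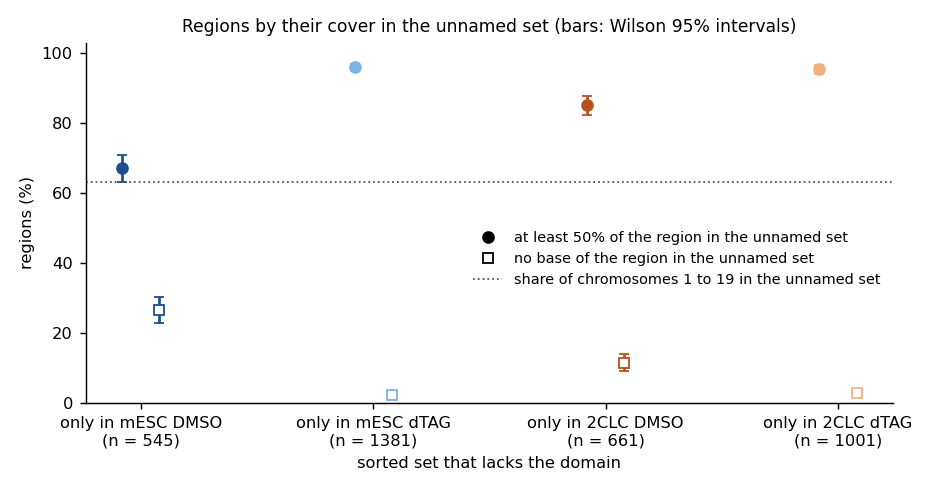
Percent of regions (vertical axis) with at least 50% of their bases (filled circles) or no base (open squares) in the unnamed set, for stretches missing a domain only in each of the 4 sorted sets, with Wilson 95% intervals over regions. For mESC DMSO the shares are 67.2% and 26.6%, and the filled circle lies near the dotted line that marks the 63.3% of chromosomes 1 to 19 in the unnamed set.

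In sequence, the regions combined a repeat content like that of shared domains with a gene density like that of the whole genome. Soft-masked bases, which the assembly marks as repeats, made up 44.5% of the regions, against 43.9% of the bases in all 4 sorted sets, 25.7% of those in none and 33.5% of chromosomes 1 to 19. Stretches missing only in mESC dTAG and only in 2CLC dTAG were at 30.2% and 29.8%, and those missing only in 2CLC DMSO at 40.5%. Repeated 50-mers, 50-base words found more than once on the same chromosome, were 17.2% of the words in the regions and 8.44% over chromosomes 1 to 19. Bases in all 4 sorted sets had 14.5%, and the median over single regions was 11.9%. The class missing only in 2CLC DMSO had 24.4%, and the dTAG classes had 6.26% and 6.74%. In 17 of the 545 regions over 50% of the words were repeated. The GC content of 41.3% lay between the 38.7% of bases in all 4 sets and the 45.3% of bases in none. The 145 regions without a base in the unnamed set had 22.3% repeated words, and the 366 with at least 50% in it had 15.0%.

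The regions held 201 starts of protein-coding genes, which is 9.15 per Mb (exact Poisson 95% interval 7.93 to 10.5). This was close to the 8.45 per Mb of chromosomes 1 to 19, above the 3.41 of bases in all 4 sorted sets and below the 14.4 of bases in none. The other classes had 3.45 (missing only in mESC dTAG), 4.00 (2CLC DMSO) and 2.45 (2CLC dTAG) starts per Mb. Gene starts of 1 cluster are not independent, and the Poisson interval does not cover that. Protein-coding gene bodies took up 34.1% of the bases of the regions and 40.3% of the chromosomes. Of the regions, 139 lay wholly within such bodies and 219 wholly outside them. Among the other annotated genes, 39 of 1789 unprocessed pseudogenes (2.18%) and 141 of 8924 processed pseudogenes (1.58%) started in a region, while lincRNAs were at 0.883%, beside 544 of all 51229 annotated genes (1.06%).

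**Figure D3:**
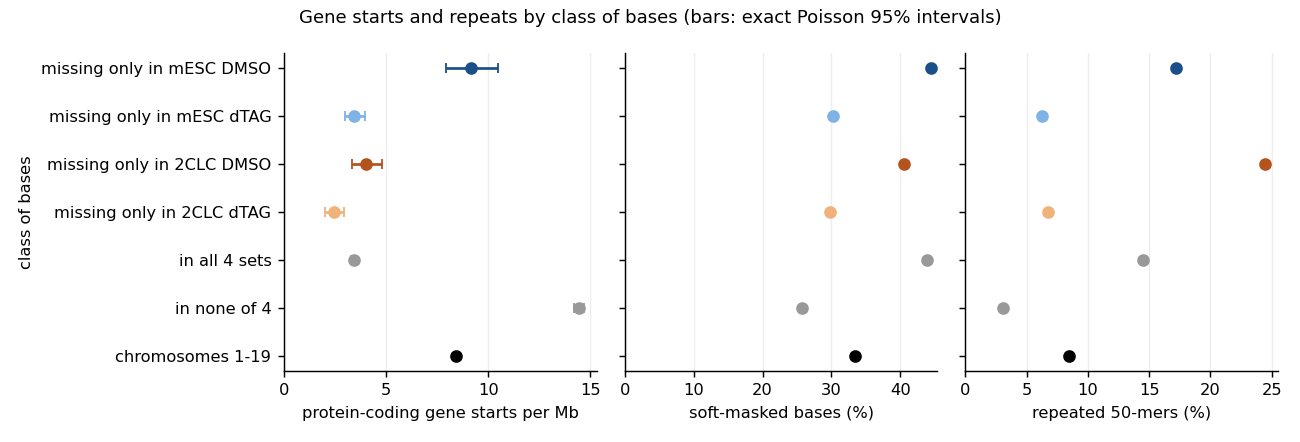
Protein-coding gene starts per Mb with exact Poisson 95% intervals (left), percent of soft-masked bases (middle) and percent of repeated 50-mers (right) for stretches missing a domain only in 1 sorted set, bases in all or none of the 4 sorted sets, and chromosomes 1 to 19. The stretches missing only in mESC DMSO have 9.15 starts per Mb beside 44.5% soft-masked bases, whereas the other 3 missing classes lie between 2.45 and 4.00 starts per Mb.

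To describe which genes were affected, starts were counted over 22 lists of gene families and pathways. The 201 genes in regions are 0.966% of the 20807 protein-coding genes on chromosomes 1 to 19, and each list is read beside that background. In 10 lists at least 1 gene started in a region, and 12 lists, among them the histone, Hox, germline and meiosis, developmental transcription factor and H3K9 methylation genes, had none. A start can be in a region only if all 3 other sets have a domain there. That held for 0 histone, 0 Hox and 1 H3K9 methylation start. For the germline and meiosis and the developmental transcription factor lists it held for 2 each. The absence of these 5 lists was thus nearly fixed by the rule. Lists with few genes give uncertain shares, and neighbouring genes in 1 region count together.

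**Figure D4:**
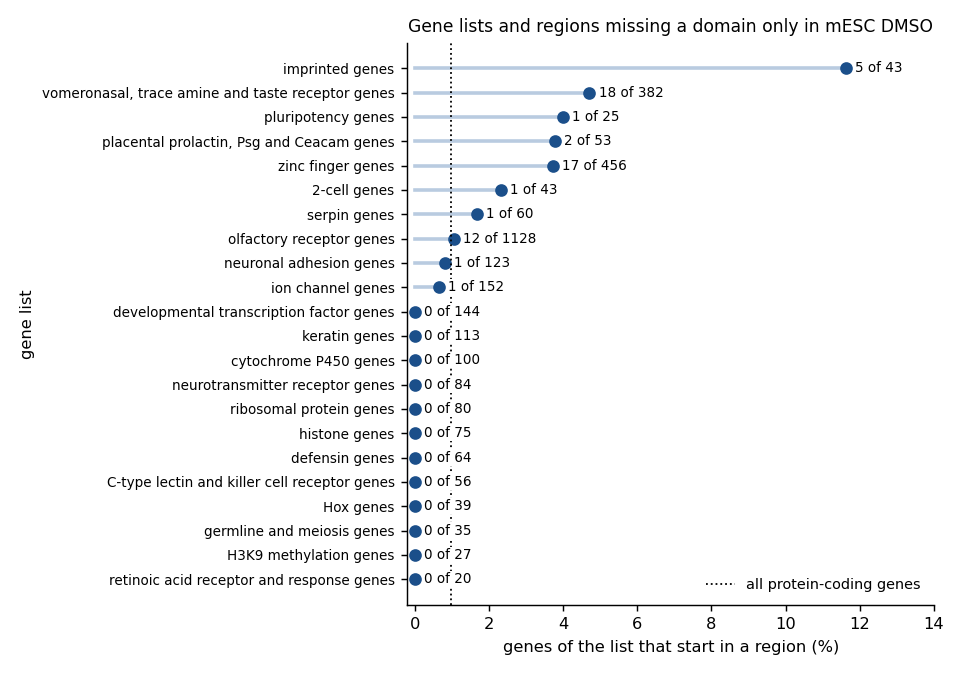
Percent of the genes of each list (horizontal axis) whose start lies in 1 of the 545 regions, with the counts beside each point and the 0.966% of all protein-coding genes as a dotted line. Imprinted genes stand at 5 of 43, vomeronasal, trace amine and taste receptor genes at 18 of 382 and zinc finger genes at 17 of 456, and 12 lists are at 0.

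Imprinted genes, which are expressed from only the maternal or the paternal copy, had 5 of 43 starts in regions (11.6%), in 3 regions on chromosomes 6 and 7. All 5 genes are known as paternally expressed, but the share of such genes over the list was not counted. Sgce, which encodes a sarcoglycan, and Peg10, a gene derived from a retrotransposon that the placenta requires, start beside each other at chr6:4741402-4766401. There the start of Peg10 was outside the mESC DMSO domains and inside a domain of 75 kb in 2CLC DMSO and domains of 130 kb in both dTAG sets, and the unnamed set had a domain of 175 kb. Of the 5 starts, the 2 at this locus were in the unnamed set, and those of Peg3, Usp29 and Mkrn3 were not. The 35 kb region chr7:6699654-6734653 covered Peg3, which encodes a zinc finger protein, and the start of Usp29, a gene of the ubiquitin protease family. For Peg3 the domain was 190 kb wide in 2CLC DMSO, 45 kb in 2CLC dTAG and 125 kb in mESC dTAG, and the mESC DMSO domain next to it began at the edge of the region.

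Mkrn3, a makorin gene whose human counterpart restrains the onset of puberty, started in a 35 kb region at chr7:62399579-62434578 within domains of 820 kb, 540 kb and 590 kb in 2CLC DMSO, 2CLC dTAG and mESC dTAG. Its neighbours in the same imprinted cluster differed in state. Peg12 was in a domain in all 4 sorted sets, 490 kb wide in mESC DMSO, and so was Snrpn, at 230 kb. The start of Ndn was outside the 2CLC DMSO domains and in domains of 45 kb in mESC DMSO, 105 kb in 2CLC dTAG and 145 kb in mESC dTAG. Over the list, 4 of 43 starts (9.30%) were in a domain in mESC DMSO and 9 (20.9%) in 2CLC DMSO. In the dTAG sets of mESCs and 2CLCs there were 13 (30.2%) and 14 (32.6%). Over all protein-coding genes the shares were, in the same order, 21.4%, 22.1%, 22.8% and 25.5%. Of the 8 imprinted starts in a domain of all 3 other sets, 6 were outside mESC DMSO, the 5 in regions and Ube3a. The same share over all protein-coding genes was 9.23% of 3303 starts.

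Zinc finger genes, many of which encode repressors of transposable elements, had 17 of 456 starts in regions (3.73%), spread over 12 regions. Of these regions, 2 on chromosome 7 held 3 starts each. Zfp954, Zfp773 and Zfp418 started in a 55 kb region at chr7:7119653-7174652 that met no mESC DMSO domain, with the nearest 10 kb away, and that was wholly in the unnamed set. At Zfp773 the 2CLC DMSO domain was 55 kb wide, the region itself, and the domains were 235 kb in 2CLC dTAG and 245 kb in mESC dTAG. Zfp329, Zfp110 and Zfp128 shared a 75 kb region at chr7:12809645-12884644 with no base in the unnamed set.

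Several further zinc finger regions were apart from any mESC DMSO domain. Zfp445, which takes part in the upkeep of imprints, and Zkscan7 started in a 50 kb region at chr9:122836461-122886460, and the nearest mESC DMSO domain was 275 kb away. Zfp872 was 620 kb from one and Zfp729b 245 kb. Other zinc finger regions adjoined such a domain, that of Zfp317 at both ends and those of Zfp788 and Zfp964 at one end. On the whole list, 84 starts (18.4%) were in mESC DMSO domains and 82 (18.0%) in 2CLC DMSO. In mESC dTAG there were 177 (38.8%) and in 2CLC dTAG 181 (39.7%). Over all protein-coding genes the shares were, in the same order, 21.4%, 22.1%, 22.8% and 25.5%. Of the 69 zinc finger starts in a domain of all 3 other sets, 22 (31.9%) were outside mESC DMSO. Over all protein-coding genes this share was 9.23%. The start was in the unnamed set for 7 of the 17, beside 112 of the 201 protein-coding starts in regions.

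**Figure D5:**
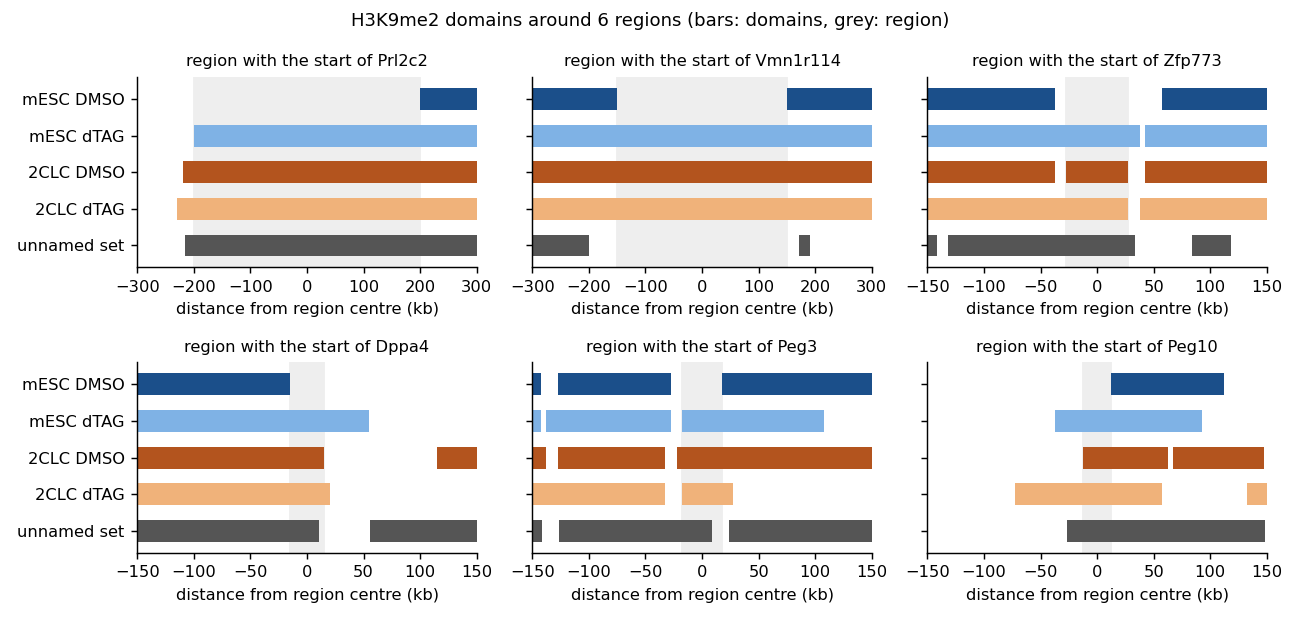
Domains (bars) of the 4 sorted sets and the unnamed set around 6 regions, by distance from the centre of the region in kb, with the region in grey, named by a gene that starts in it. At Vmn1r114 the region of 300 kb interrupts a mESC DMSO run on both sides and holds no domain of the unnamed set, at Prl2c2 the unnamed set covers all 400 kb, and at Dppa4 the region of 30 kb continues a mESC DMSO domain.

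Among the lists, the chemosensory receptors of the vomeronasal group gave the most genes. Of the vomeronasal, trace amine and taste receptor genes, 18 of 382 (4.71%) started in 7 regions, all of them Vmn1r genes, which encode pheromone receptors of the vomeronasal organ. Of these, 8 (Vmn1r114 to Vmn1r121) lay in 1 region, the second widest, at chr7:20799635-21099633. This region of 300 kb met mESC DMSO domains at both ends, was part of domains of 4085 kb, 4155 kb and 4250 kb in 2CLC DMSO, 2CLC dTAG and mESC dTAG, and had no base in the unnamed set. Of its 50-base words, 87.9% were repeated on chromosome 7, so most words of that length match more than 1 place. Per the study's methods the reads were longer and paired. The part of repeats in its domain calls was not tested. The remaining Vmn1r starts were in narrower regions on chromosomes 1, 6, 7 and 17. All 3 other sets had a domain at 352 starts of the whole list, and 18 of these (5.11%) lay outside mESC DMSO. This was below the 9.23% over all protein-coding genes, although 4.71% of the list was above the 0.966% background. The list as a whole was in domains in every population, with 367 starts in each of the 2CLC sets, 352 in mESC DMSO and 357 in mESC dTAG. Olfactory receptor genes, at 12 of 1128 (1.06%) in 6 regions, were near the 0.966% of all protein-coding genes. Of their 900 starts in a domain of all 3 other sets, 18 (2%) were outside mESC DMSO. That share was also below the 9.23% over all protein-coding genes.

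The 2-cell list, genes expressed at zygotic genome activation, had 1 of 43 starts in a region, and so did the pluripotency list with 1 of 25. Both were Dppa4, which with its partner DPPA2 activates genes of the 2-cell stage. The region was 30 kb wide, at chr16:48254849-48284848, and adjoined a mESC DMSO domain. The gene starts near the end of the region, and its start was in domains of 2065 kb, 1675 kb and 1715 kb in 2CLC DMSO, 2CLC dTAG and mESC dTAG. In the unnamed set the region was covered to 84.6% and the start itself was outside. The other members of the 2-cell list were mostly in domains everywhere, with 35 of 43 starts in all 4 sorted sets. Over all protein-coding genes this held for 2998 of 20807. Of the 36 starts of the 2-cell list in a domain of all 3 other sets, 1 (2.78%) was outside mESC DMSO. The share over all protein-coding genes was 9.23%.

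Single genes stood for 3 other lists, Serpinb9g of the serpin genes (1 of 60), Pcdhb1 of the neuronal adhesion genes (1 of 123) and Kcnd2, a potassium channel gene, of the ion channel genes (1 of 152). The placental list of prolactin, Psg and Ceacam genes had 2 of 53, both in the widest region of all. That region, chr13:12667930-13067928, was 400 kb wide and held Prl2c3 and Prl2c2, which encode prolactin-like hormones of the placenta. It met a mESC DMSO domain at one end, and the domains around it were 700 kb, 730 kb and 690 kb wide in 2CLC DMSO, 2CLC dTAG and mESC dTAG. It was wholly in the unnamed set, and 55.2% of its 50-base words were repeated. Of the 43 starts of the placental list in a domain of all 3 other sets, 2 (4.65%) were outside mESC DMSO. The share over all protein-coding genes was 9.23%.

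The other wide regions were as mixed. The third, chr12:3107125-3252124, was 145 kb wide, 2140 kb from the nearest mESC DMSO domain and equal to a whole mESC dTAG domain, and no protein-coding gene started in it. At chr7:41504607-41649606, 145 kb with Gm6871, 2610021A01Rik and Zfp788, 62.1% of the bases were in the unnamed set. A region of the same width at chr13:66252859-66397857 had no base in the unnamed set, no protein-coding start and 75.2% repeated words. Serpinb9g and Gm11397 started in a 135 kb region at chr13:33352902-33487901 that closed a gap between 2 mESC DMSO domains and was wholly in the unnamed set, with 73.4% repeated words. The 125 kb region at chr10:83369890-83494889 held no annotated gene start and was 530 kb from a mESC DMSO domain. It was the whole of a 2CLC DMSO domain and 96.2% of a domain in each dTAG set, and 20% of it was in the unnamed set.

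Another region of 125 kb, chr13:65462860-65587858, had the start of Gm10139 and 77.8% repeated words, and a mESC DMSO domain lay 5 kb away. At chr7:5114656-5239654, also 125 kb wide, Rfpl4, Rasl2-9, Vmn1r55, Vmn1r56 and Vmn1r57 started, with 32.0% of the bases in the unnamed set. The tenth region by width, chr8:69277917-69397916, was 120 kb wide, had no protein-coding start and was wholly in the unnamed set. Among the 20 widest regions, Lyn, a Src family kinase gene, started in a 105 kb region and B3galnt1, a glycosyltransferase gene, in one of 100 kb, both wholly in the unnamed set. Vmn1r1 started in a 95 kb region without a base in it. The third widest region between 2 mESC DMSO domains, chr2:98367847-98447846, was 80 kb wide with 5.44% of its bases in the unnamed set.

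All 19 chromosomes held regions, from 8 on chromosome 19 to 54 on chromosome 2. They took up 0.545% of chromosome 16 and 1.8% of chromosome 13, the lowest and highest shares, with a median of 0.827% over chromosomes. Chromosome 13 had 43 regions, of which 16 had no base in the unnamed set. On each chromosome 50% to 80% of the regions had at least 50% in the unnamed set. Regions were sometimes neighbours, with 97 of the 545 in 47 groups whose members lay within 50 kb of the next. The largest group had 4 regions on chromosome 10, and 3 regions on chromosome 1 summed to 285 kb.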

How the data were processed

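ULI-NChIP, which immunoprecipitates native chromatin from few cells, measured H3K9me2. The deposited files hold domain positions (chromosome, start and end, in base pairs) made by the authors, 1 set for each of the 4 sorted conditions and the unnamed set. Whether replicates were pooled before the call is not given in the sources used here. Per the study's methods, reads were aligned with STAR in a mode that keeps multiply matching reads, and domains were called from the log2 ratio of immunoprecipitation to input in 5 kb bins. The submitters' processing notes name the build mm10 and STAR 2.7.10, Picard 2.26.0, SAMtools 1.14, bedtools 2.30.0, deepTools 3.5.1 and R 4.1.2. Depth cannot be read from positions, so no precision per library is given.

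Regions were computed base by base with Python 3.11.15, numpy 2.4.6, pandas 2.3.3, scipy 1.17.1 and matplotlib 3.10.9, by a procedure tested on simulated data. Coordinates are 1-based on mm10 (GRCm38). Gene starts were those of GENCODE M21, base composition, soft-masking and repeated 50-mers those of GRCm38.p6, read in steps of 100 bp. Promoter sequences were those of RefSeq. Alternatives changed the width limit, the joining of segments, the domain edges and widths, the chromosomes and the cover limit. The regions named were the 10 widest and the 3 widest of each placement, and the genes named were those starting in the 20 widest regions and those of the lists, with counts and examples for lists of over 10. The zinc finger examples Zfp445, Zkscan7, Zfp872 and Zfp729b, the pair of regions on chromosome 7 and the neighbours of Mkrn3 were chosen after their values were seen. The same holds for the examples Zfp317 and Zfp964. The regions and gene lists were chosen with earlier results of these data known. Columns of per-sample values left unused numbered 0.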

Additional observations from a re-analysis of the deposited data

Results flagged for a closer look

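Chromosomes X and Y were outside the rule and belong to no comparison above. On chromosome X, 66 runs of 20 kb or more were in domains of every sorted set but mESC DMSO, with a summed length of 2.54 Mb. They drew attention because the regions do not use chromosome X, but they come from the same 4 sorted sets by the same rule. Of their bases, 38.7% were in the unnamed set. On chromosome X the lengths missing only in mESC dTAG, 2CLC DMSO and 2CLC dTAG were 3.94 Mb, 1.21 Mb and 1.5 Mb. On chromosome Y, 4 runs summed to 31.1 Mb, of which 1 was 30360 kb wide, and 2.19% of their bases were in the unnamed set. The lengths missing only in mESC dTAG, 2CLC DMSO and 2CLC dTAG there were 0 Mb, 0.1 Mb and 0.29 Mb. Neither difference was tested, since there is 1 set per condition.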

How the results depend on the processing

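No paired analysis was possible because no library has values of its own, and for the same reason no replicate could be left out. Apart from leaving out chromosomes, 83 of 115 values moved by less than their interval or by at most 1.5 times, and 32 moved further. With a width limit of 10 kb the median width was 25 kb and 60.02% of regions met a mESC DMSO domain at neither end. With 50 kb there were 136 regions of 10.0 Mb with a median of 65 kb, 72.1% of them with at least 50% in the unnamed set. With segments up to 10 kb apart joined, 66.3% met a domain at neither end. With domains of at least 50 kb only, 306 regions remained, the median was 50 kb, 72.5% had at least 50% in the unnamed set and 50.7% met a domain at neither end. Over all annotated genes there were 24.8 starts per Mb. Counting any shared base with the unnamed set gave 73.4%, and requiring 90% gave 59.3%. An alternative chosen after seeing the data, joining domains under 10 kb apart in each set, gave 64.8% at neither end. Another, also chosen after seeing the data, kept the 236 regions with at most 10% repeated 50-mers, of which 75.4% had at least 50% in the unnamed set. Leaving out 1 chromosome at a time moved none of 228 values past these limits. It gave 491 to 537 regions, 19.8 to 21.6 Mb, median widths of 30 to 35 kb, 66.2% to 67.9% of regions with at least 50% in the unnamed set, 71.5% to 73.4% at neither end and 8.33 to 9.59 gene starts per Mb. With 1 set per condition, nothing here covers variation between experiments.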
